A study of Rattus norvegicus with 6 samples.

Results

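Genes of DNA replication and cell division were read in the skeletal muscle of lower birth weight (LBW) and average birth weight (ABW) rat pups. The list names 59 genes, chosen by their known roles and with earlier results of these arrays known. A gene was measured here when the RefSeq accession of a row could be matched to its symbol. This held for 31 of the 59, among 9627 genes with a symbol in all. RNA came from the soleus and gastrocnemius muscles of 3 LBW and 3 ABW pups, all untreated male Wistar rats aged 1 day, and each pup had 1 NimbleGen array. LBW pups lay between percentiles 5 and 25 of birth weight. For the controls, called ABW here, the sample labels give percentiles 25 to 75 and the protocol gives 50 to 75. The array labels RNA with a single dye (Cy3), so that each array holds the RNA of 1 pup. A value is the log2 brightness of a transcript in that pup after the submitters' normalization. The 6 arrays had medians between 8.695 and 8.757. The labels call the pups of each group biological replicates and do not name their litters, so that p-values measure the spread between these pups.

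A cell that divides first licenses its origins, when the origin recognition complex loads the Mcm helicase, then copies its DNA at forks that hold polymerases, primase, the clamp Pcna and its loader, and finally divides under the kinase Cdk1 with B cyclins. Replication genes are induced by E2F factors before S phase. Genes of mitosis peak later, and many carry CCAAT boxes and a cell cycle homology region (CHR), through which the DREAM and MuvB complexes act. In newborn muscle the nuclei within fibres have left the cycle, while myoblasts, satellite cells, fibroblasts, endothelial cells and blood-derived cells still divide. In bulk muscle RNA, fewer dividing cells and less RNA of a gene per cell cannot be told apart.

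The promoters of genes with differing results are shown first, because the list joins both kinds of gene. Each is a RefSeq window of the build GRCr8, from 250 bases before to 50 bases after a gene start, printed 5′ to 3′ in the direction of the gene. These coordinates are not those of the array, whose design follows another build. Capitals mark matches on either strand to TTCCCGC, to TTGGCGC, to TTCGCGC or to TTGCCGC (letters taken for E2F), to TTTGAA (for CHR) and to CCAAT. An E2F match can overlap a CCAAT match. *Ccnb1*, *Plk1*, *Kif22* and *Cdc20* act in mitosis and had lower signals in LBW pups, *Fen1* acts at the fork and was lower too, and *Mcm7* is the helicase gene with a row.
Ccnb1 (chr2:33655176-33655475, minus strand): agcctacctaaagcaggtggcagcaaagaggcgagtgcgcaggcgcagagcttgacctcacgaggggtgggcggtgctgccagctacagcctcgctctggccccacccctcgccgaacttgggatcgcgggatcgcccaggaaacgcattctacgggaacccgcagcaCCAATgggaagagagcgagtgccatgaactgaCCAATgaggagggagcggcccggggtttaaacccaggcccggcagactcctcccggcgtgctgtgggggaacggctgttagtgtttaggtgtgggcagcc
Plk1 (chr1:186147408-186147707, plus strand): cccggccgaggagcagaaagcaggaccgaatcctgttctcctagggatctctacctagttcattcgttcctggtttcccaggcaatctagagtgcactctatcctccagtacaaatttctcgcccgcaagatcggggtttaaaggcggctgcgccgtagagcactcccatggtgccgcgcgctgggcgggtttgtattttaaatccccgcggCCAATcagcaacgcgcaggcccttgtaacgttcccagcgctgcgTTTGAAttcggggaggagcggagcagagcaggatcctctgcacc
Kif22 (chr1:191080829-191081128, minus strand): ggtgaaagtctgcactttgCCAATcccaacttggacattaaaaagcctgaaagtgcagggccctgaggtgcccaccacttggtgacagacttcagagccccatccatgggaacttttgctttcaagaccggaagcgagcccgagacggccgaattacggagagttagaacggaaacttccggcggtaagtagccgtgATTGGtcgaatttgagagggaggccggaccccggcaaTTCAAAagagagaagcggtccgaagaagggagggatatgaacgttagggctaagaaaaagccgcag
Cdc20 (chr5:137255750-137256049, minus strand): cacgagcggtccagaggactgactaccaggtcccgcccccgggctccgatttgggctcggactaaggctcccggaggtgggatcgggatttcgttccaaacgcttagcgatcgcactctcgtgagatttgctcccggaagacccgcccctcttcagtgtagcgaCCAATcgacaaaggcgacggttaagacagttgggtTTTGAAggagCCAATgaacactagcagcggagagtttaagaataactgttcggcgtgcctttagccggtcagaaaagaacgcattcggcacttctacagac
Fen1 (chr1:216274347-216274646, minus strand): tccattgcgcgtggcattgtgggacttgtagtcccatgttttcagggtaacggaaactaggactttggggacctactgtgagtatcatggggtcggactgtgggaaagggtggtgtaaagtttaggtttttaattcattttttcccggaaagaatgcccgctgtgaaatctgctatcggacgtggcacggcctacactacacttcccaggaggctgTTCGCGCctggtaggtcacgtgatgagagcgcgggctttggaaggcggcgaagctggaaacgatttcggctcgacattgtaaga
Mcm7 (chr12:22163129-22163428, minus strand): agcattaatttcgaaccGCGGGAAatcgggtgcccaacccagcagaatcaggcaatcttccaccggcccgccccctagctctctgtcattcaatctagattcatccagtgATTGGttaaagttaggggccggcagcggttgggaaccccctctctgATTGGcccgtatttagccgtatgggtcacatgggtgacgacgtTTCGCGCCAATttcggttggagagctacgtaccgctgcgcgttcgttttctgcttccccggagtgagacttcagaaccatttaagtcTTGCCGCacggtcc

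Of the 31 genes with a row, 26 had a promoter window. An E2F match was found in 8 of 12 replication genes and in 2 of 13 mitosis genes, compared to 9.52% of all 33469 windows. The CHR letters were found in 0 of the 12 and in 7 of the 13, compared to 18.3% of all windows, and CCAAT in 6 and in 11, compared to 37.5%. In 2 of the 12 replication genes, *Mcm7* among them, an E2F match overlapped a CCAAT match. *Plk1* has its CHR letters at base 7 of the transcript and a CCAAT box at -38, *Kif22* has a CHR match at -16 and CCAAT boxes at -231 and -53, and *Cdc20* has a CHR match at -51 and CCAAT boxes at -86 and -41. *Ccnb1* has CCAAT boxes at -82 and -50 and no CHR match, and *Fen1* has a single E2F match at -34. The promoters printed do not stand for all mitosis genes. *Kif2c*, with the largest fall on the list, had a window and no match to any of the letters. *Ccnb2*, with a log2 fold change of 0.006, had CHR matches at -214 and -43 and CCAAT boxes as well. Of the mitosis genes lower at an unadjusted p under 0.05 by limma, 4 of 7 with a window had the CHR letters and 5 had CCAAT. A match is only a description of the letters in the window, and its link to the fold changes was not tested.

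The tissue was first checked against its markers, and muscle was plain in every pup. Skeletal muscle markers had a row for 8 of 11 genes, and all 8 lay at or above percentile 96.3 of the signals of the array. *Acta1*, skeletal actin, was between 15.15 and 15.41 in the 6 pups. None of the 8 was called between the groups at the threshold given below (4.27% of all features were called). The LBW pups were not alike in other tissues, however. The 7 bone genes with a row (of 8 listed) averaged 3.66 in LBW 1, 0.82 in LBW 2 and 4.52 in LBW 3 on the log2 scale relative to the ABW mean. LBW 1 and LBW 3 thus stood apart by their bone signal, and LBW 2 did so much less.

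No row of the arrays differed after adjustment, and few of the proliferation genes passed the threshold of the study. The threshold asks for an unadjusted p under 0.05 together with a change of 1.5-fold or more, and 4.27% of all 26299 features tested met it in either direction. The fit was made with limma, a linear model in which each variance borrows from those of all features. It called 3 of the 31 genes lower in LBW pups (1.89% of all features were called lower) and 0 higher (2.38% of all). The 3 genes were *Kif2c*, *Kif22* and *Fen1*. After Benjamini-Hochberg adjustment over all features, limma called 0 of the 31 genes and 0 features in all (0.0%), as did the methods' t-test. At an unadjusted p under 0.05 without a fold criterion, limma gave 9 genes lower (6.73% of all features) and 1 higher (5.63% of all). The median log2 fold change of the 31 genes was -0.18, beside -0.02 over all features, and it was -0.11 without ABW 1. Every LBW pup lay below every ABW pup for 12 of the genes (10.1% of all features) and above for 3 (7.27% of all).

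Of the 9 genes lower at an unadjusted p under 0.05 by limma, 7 were mitosis genes. Of the 14 mitosis genes with a row (of 26 listed), 12 had a lower mean in LBW pups, 9 had no overlap between the groups in that direction (10.1% of all features), and 7 had an unadjusted p under 0.05 (6.73% of all). Of the 15 replication genes with a row (of 27 listed), 8 were lower and 7 higher, with no overlap for 2 in the lower direction (10.1% of all features) and 3 in the higher (7.27% of all). The median log2 fold change was -0.31 for mitosis and -0.07 for replication genes, where 55.6% of all features were below 0. The replication median was -0.0095 without ABW 2 and -0.10 without LBW 3 or ABW 3. *Ccna2* and *Cdk2*, which serve S phase, also had a row, and neither *Mki67* nor *Plk4* had one.

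**Figure D1:**
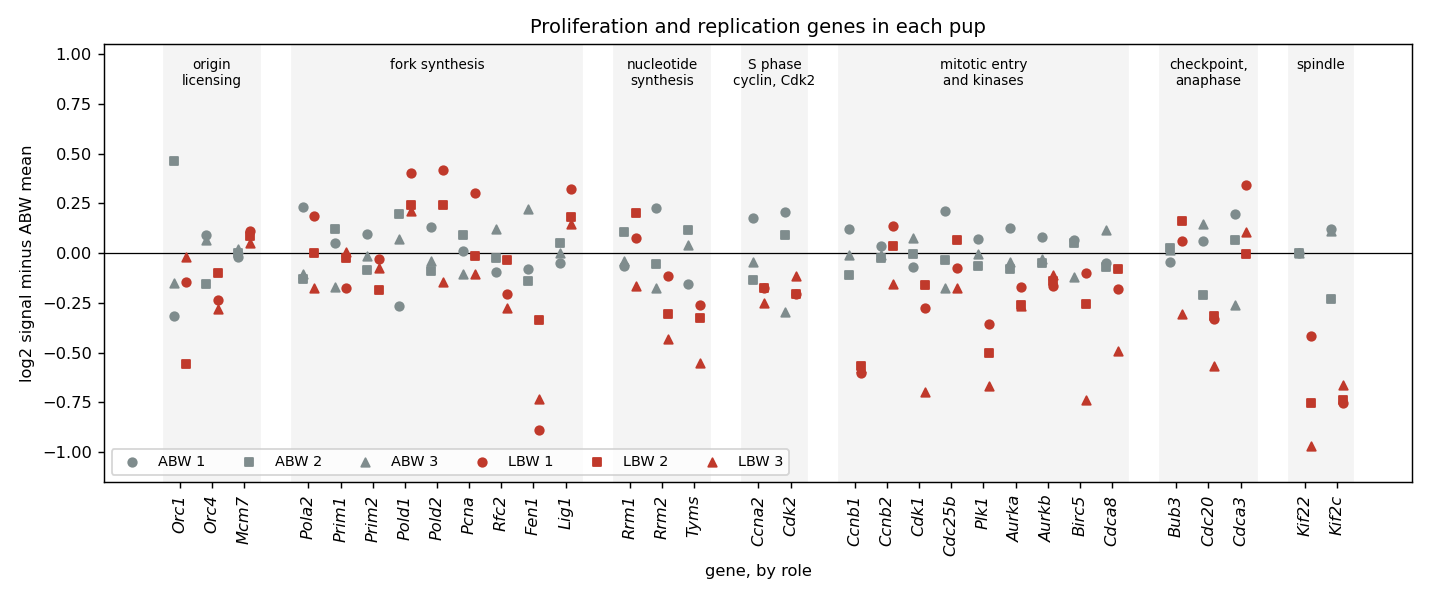
Log2 signal of each of the 31 genes in each pup, relative to the mean of the ABW pups for that gene, with genes grouped by role on the x axis. Points are single pups (grey, ABW; red, LBW; the marker shape gives the pup number). All red points lie below all grey points for *Ccnb1*, *Plk1*, *Kif22* and *Kif2c*, while *Pcna*, *Prim1* and *Rrm1* overlap.

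Origin licensing is the first step of replication, and its 3 genes with a row showed no call. *Orc1*, a subunit that loads the helicase, was at 7.57, 7.16 and 7.70 in LBW 1, 2 and 3 and at 7.40, 8.18 and 7.57 in ABW 1, 2 and 3. The groups overlapped, and the log2 fold change was -0.24 (SE 0.24, limma adjusted p = 0.723). It was -0.0095 without ABW 2, -0.08 without LBW 2 and -0.40 without ABW 1. *Orc4*, another subunit, was at 10.83, 10.96 and 10.78 in LBW and at 11.15, 10.91 and 11.13 in ABW pups, which again overlapped, with a log2 fold change of -0.21 (SE 0.11, limma adjusted p = 0.483). *Mcm7*, part of the helicase itself, was at 11.31, 11.29 and 11.25 in LBW and at 11.18, 11.20 and 11.22 in ABW pups. Here every LBW pup was the higher, by a log2 fold change of 0.08 (SE 0.08, limma adjusted p = 0.704). The spread within a group was small for *Mcm7*, and the 95% interval of its log2 fold change ran from -0.10 to 0.27 by limma. The methods' t-test gave *Mcm7* an unadjusted p under 0.05, as it did *Aurkb* and *Tfdp1*, which limma did not.

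At the replication fork, limma called *Fen1* lower at the threshold of the study (1.89% of all features) and no gene higher (2.38% of all). *Fen1*, the nuclease that trims the flaps of Okazaki fragments, was at 7.19, 7.74 and 7.34 in LBW and at 7.996, 7.93 and 8.30 in ABW pups. It fell by 0.65 on the log2 scale (SE 0.17, unadjusted p = 0.00801, limma adjusted p = 0.287), a fold change of 0.636. The groups did not overlap, with LBW 2 nearest to the ABW pups, but the signal was low, at percentile 41.8 of all features. *Lig1*, the ligase that seals the fragments, was at 13.27, 13.13 and 13.09 in LBW and at 12.90, 12.99 and 12.95 in ABW pups. Every LBW pup was above every ABW pup, by 0.22 (SE 0.09, unadjusted p = 0.0466, limma adjusted p = 0.395), which is below the fold criterion. The unadjusted p of *Lig1* was above 0.05 with the replicate block, with median centring, without the dimmest 25% of rows, and without any 1 pup other than LBW 3. Without LBW 1 the log2 fold change of *Fen1* was -0.54, and without ABW 3 it was -0.54 as well, so that it missed the fold criterion in both cases.

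The polymerases, primase and clamp showed no call in either direction. *Pold1*, the catalytic subunit of polymerase delta, was at 10.05, 9.88 and 9.86 in LBW and at 9.38, 9.84 and 9.72 in ABW pups. It was higher in every LBW pup, with a log2 fold change of 0.29 (SE 0.14, limma adjusted p = 0.467). Without ABW 1, the lowest pup, it was 0.15. *Pcna*, the clamp that tethers polymerases to DNA, was at 13.69, 13.37 and 13.28 in LBW and at 13.40, 13.48 and 13.28 in ABW pups. The values overlapped, and the 95% interval of the log2 fold change was -0.25 to 0.37. The other 5 genes of the fork, *Pola2*, *Prim1*, *Prim2*, *Pold2* and *Rfc2*, had overlapping groups and log2 fold changes between -0.17 (*Rfc2*) and 0.17 (*Pold2*). *Pold2* was at 0.05 without LBW 1 and 0.33 without LBW 3, and *Rfc2* at -0.11 without ABW 3.

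Nucleotide synthesis supplies the fork, and 2 of its 3 genes with a row had lower means in LBW pups. *Tyms*, thymidylate synthase, was at 11.37, 11.30 and 11.07 in LBW and at 11.47, 11.74 and 11.66 in ABW pups. The groups did not overlap, and the log2 fold change was -0.38 (SE 0.12, unadjusted p = 0.0178, limma adjusted p = 0.318), short of the fold criterion. Its unadjusted p was above 0.05 without ABW 2 or ABW 3. *Rrm2*, the regulated subunit of ribonucleotide reductase, was at 11.41, 11.21 and 11.09 in LBW and at 11.75, 11.47 and 11.35 in ABW pups, with a log2 fold change of -0.28 (SE 0.14, limma adjusted p = 0.468), or -0.17 without ABW 1. LBW 1 and ABW 3 overlapped there, and with the replicate block the unadjusted p was 0.0293 by limma. *Rrm1*, the large subunit, was at 12.45, 12.58 and 12.21 in LBW and at 12.31, 12.48 and 12.34 in ABW pups, with a log2 fold change of 0.04 (95% interval -0.25 to 0.32).

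The cyclin and kinase of S phase had lower means in LBW pups, and neither met the threshold. *Ccna2*, cyclin A2, was at 12.53, 12.53 and 12.46 in LBW and at 12.89, 12.57 and 12.66 in ABW pups. Every LBW pup was the lower, by a log2 fold change of -0.20 (SE 0.11, limma adjusted p = 0.498), which was -0.11 without ABW 1. *Cdk2*, its partner kinase, was at 12.36, 12.36 and 12.44 in LBW and at 12.77, 12.65 and 12.26 in ABW pups, with overlap through ABW 3 and a log2 fold change of -0.18 (SE 0.14, limma adjusted p = 0.661). For *Cdk2* it was -0.32 without ABW 3, with an unadjusted p of 0.0205 by limma, and -0.07 without ABW 1.

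Among the genes of mitotic entry, *Ccnb1* separated the pups most clearly. *Ccnb1*, cyclin B1, was at 11.42, 11.45 and 11.45 in LBW 1, 2 and 3 and at 12.14, 11.91 and 12.01 in ABW 1, 2 and 3. The LBW values lay within an SD of 0.02, and all were below the ABW values. The log2 fold change was -0.58 (SE 0.09, unadjusted p = 0.000516, limma adjusted p = 0.214), so that *Ccnb1* missed the fold criterion, which is 0.585 on this scale, by a narrow margin, and it met it with median centring (-0.60) and without LBW 2, ABW 2 or ABW 3. With 1 pup left out at a time it lay between -0.64 and -0.52. *Ccnb2*, the other B cyclin on the list, was at 11.79, 11.69 and 11.50 in LBW and at 11.69, 11.63 and 11.65 in ABW pups. Its groups overlapped, and the 95% interval of its log2 fold change ran from -0.24 to 0.25, compared to -0.80 to -0.36 for *Ccnb1*. The difference between the cyclins was not tested.

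The mitotic kinases had lower means in LBW pups as well, by smaller amounts. *Plk1*, the kinase that drives entry and spindle assembly, was at 11.59, 11.44 and 11.28 in LBW and at 12.02, 11.88 and 11.94 in ABW pups. No LBW pup reached an ABW pup, and the log2 fold change was -0.51 (SE 0.11, unadjusted p = 0.00264, limma adjusted p = 0.250). *Cdk1*, the partner of the B cyclins, was at 12.15, 12.26 and 11.72 in LBW and at 12.35, 12.42 and 12.50 in ABW pups, with a log2 fold change of -0.38 (SE 0.15, unadjusted p = 0.0451, limma adjusted p = 0.391). LBW 3 was far the lowest pup there, and without it the log2 fold change was -0.22. *Aurka*, the kinase of the spindle poles, was at 11.26, 11.17 and 11.16 in LBW and at 11.55, 11.34 and 11.38 in ABW pups, a log2 fold change of -0.23 (SE 0.09, unadjusted p = 0.0440, limma adjusted p = 0.389). *Aurkb*, the kinase of the chromosomal passenger complex, was at 12.22, 12.24 and 12.27 in LBW and at 12.46, 12.33 and 12.35 in ABW pups, a log2 fold change of -0.14 (SE 0.08, limma adjusted p = 0.542). The groups overlapped for none of these 4 kinases, where 10.1% of all features had all LBW pups below all ABW pups. *Aurka* and *Cdk1* were named after their values were seen, so that the 4 are partly a picked set. None of the 4 met the fold criterion with all pups. *Plk1* reached it without LBW 1 (-0.59). Of the other members of that complex, *Cdca8* (log2 fold change -0.25) did not overlap and *Birc5*, survivin (-0.37), did. Both had their lowest value in LBW 3, without which they were -0.13 and -0.18. *Cdc25b*, a phosphatase that activates Cdk1, was between 12.96 and 13.21 in LBW and between 12.96 and 13.35 in ABW pups.

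Of the checkpoint and anaphase genes, 3 of 8 had a row and none met the threshold. *Cdc20*, the activator of the anaphase-promoting complex, was at 11.18, 11.20 and 10.94 in LBW and at 11.58, 11.30 and 11.66 in ABW pups. The groups did not overlap, and the log2 fold change was -0.41 (SE 0.13, unadjusted p = 0.0187, limma adjusted p = 0.322). The unadjusted p was above 0.05 without LBW 3, ABW 1 or ABW 3. *Bub3*, a checkpoint protein, was at 12.44, 12.54 and 12.07 in LBW and at 12.33, 12.40 and 12.39 in ABW pups, and *Cdca3*, which helps to degrade the inhibitor Wee1, was at 12.28, 11.94 and 12.05 and at 12.14, 12.00 and 11.68. Both overlapped, with log2 fold changes of -0.03 and 0.15, the latter 0.02 without ABW 3 and 0.05 without LBW 1. *Bub1*, *Bub1b*, *Mad2l1*, *Ttk* and *Ube2c* had no row and were not analysed here.

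The kinesins gave the largest falls of all the proliferation genes with a row. *Kif2c*, which depolymerizes microtubules at kinetochores, was at 10.41, 10.42 and 10.498 in LBW and at 11.28, 10.93 and 11.27 in ABW pups. All LBW pups were below all ABW pups, and *Kif2c* fell by 0.72 on the log2 scale (SE 0.12, unadjusted p = 0.000727, limma adjusted p = 0.214), a fold change of 0.609. *Kif22*, a kinesin that moves chromosome arms, was at 10.75, 10.42 and 10.20 in LBW and at 11.17 in each ABW pup. It fell by 0.71 (SE 0.15, unadjusted p = 0.00232, limma adjusted p = 0.250), a fold change of 0.611. Without LBW 3 the log2 fold change of *Kif22* was -0.58, at which it just missed the fold criterion, while *Kif2c* met it without any 1 pup. For every gene whose groups did not overlap, the exact permutation test gave a 2-sided p of 0.1, the smallest that 3 pups against 3 allow.

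**Figure D2:**
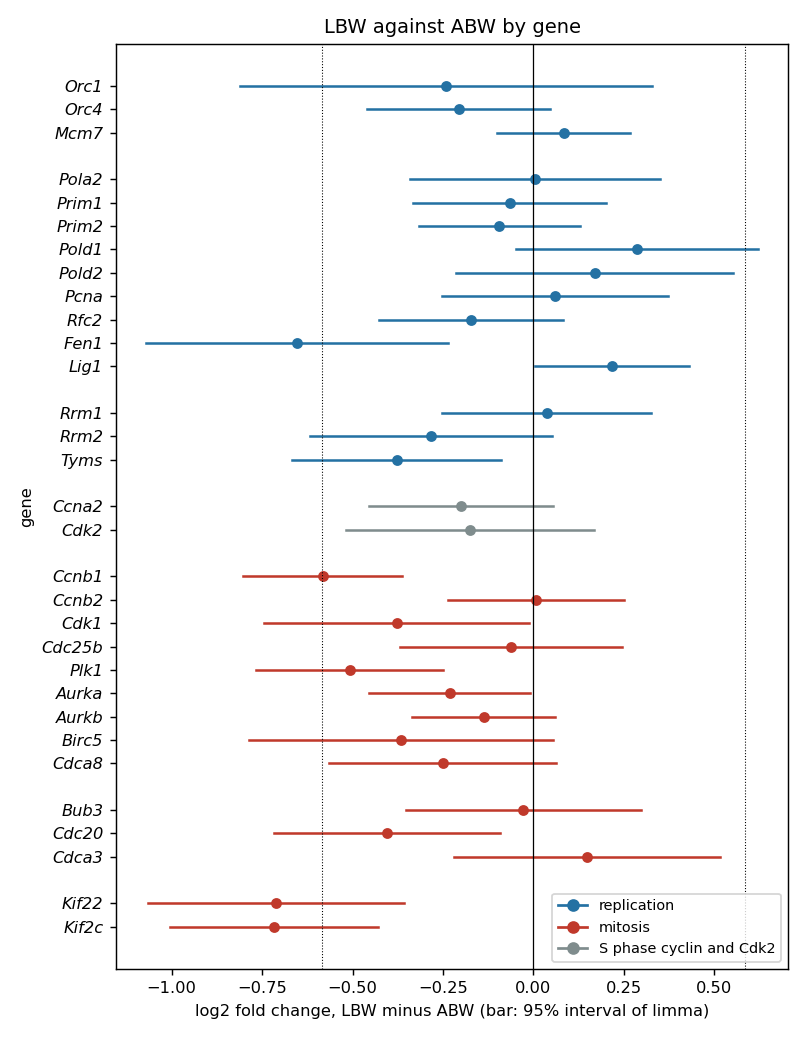
Log2 fold change (LBW minus ABW) of the 31 genes on the x axis, with the 95% interval of limma as a bar and genes by role on the y axis (blue, replication; red, mitosis; grey, *Ccna2* and *Cdk2*). Dotted lines mark a fold change of 1.5 in either direction. *Fen1*, *Kif22* and *Kif2c* alone lie beyond a dotted line, and *Ccnb1* lies at it.

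Replication and mitosis genes were then set against each other within each pup. The mean of the 14 mitosis genes, relative to the ABW mean, was -0.21, -0.25 and -0.45 in LBW 1, 2 and 3 and 0.07, -0.05 and -0.01 in ABW 1, 2 and 3. That of the 15 replication genes was -0.02, -0.06 and -0.17 in LBW and -0.01, 0.03 and -0.02 in ABW pups. The LBW pups were thus all below the ABW pups in mitosis genes, and LBW 1 lay within the ABW values in replication genes. Replication minus mitosis was 0.19, 0.19 and 0.28 in LBW and -0.08, 0.08 and -0.004 in ABW pups. As a difference of medians over genes it was 0.24, and it was 0.10 without LBW 3, the pup with the lowest mitosis genes, and 0.33 without LBW 2. The median of the mitosis genes was -0.20 without LBW 3. The array of LBW 3 also had the lowest of the array weights, by which limma counts less variable arrays for more (0.577, the others between 0.868 and 1.669). No p is given for these means, since the genes were chosen with earlier results of these arrays known. With replication limited to Mcm, polymerase, primase, Rfc and nucleotide synthesis genes (10 with a row), the median log2 fold change of that class was -0.03.

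The same was asked of further cell cycle genes that the list does not hold, chosen by role and also with earlier results known. Of 123 such genes, 44 had a row. Of the 22 for mitosis (63 listed), 18 had a lower mean in LBW pups, compared to 55.6% of all features, and 5 fell at the threshold of the study (1.89% of all) and 0 rose by limma (2.38% of all). At an unadjusted p under 0.05 limma gave 8 lower (6.73% of all) and 1 higher (5.63% of all), 10 had all LBW pups below all ABW pups (10.1% of all), and the median log2 fold change was -0.28. This median was nearer to 0 without LBW 3, where the middle genes of the 22, *Tacc3* and *Kifc1*, were at -0.13. Of the 19 for replication (42 listed), 14 had a lower mean, 0 passed that threshold by limma, with 1 lower and 0 higher at an unadjusted p under 0.05, 1 had all LBW pups below all ABW pups, and the median was -0.07. Without LBW 3 the middle gene of the 19, *Pole3*, was at -0.04. The 22 mitosis genes averaged -0.20, -0.22 and -0.45 in LBW 1, 2 and 3, and the 19 replication genes -0.02, 0.0005 and -0.19. The order of the LBW pups was therefore the same as on the first list for mitosis genes, with LBW 3 the lowest.

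The 5 further genes that fell were *Pbk*, *Kif15*, *Cep55*, *Cenpq* and *Cenpi*. *Pbk*, a mitotic kinase, was at 9.94, 9.89 and 9.81 in LBW and at 10.51, 10.74 and 10.93 in ABW pups. It fell by 0.85 on the log2 scale (SE 0.13, limma adjusted p = 0.214), more than any gene of the first list. *Kif15*, a spindle kinesin, fell by 0.71 (SE 0.16, limma adjusted p = 0.262), and *Cep55*, which acts in the final cut between daughter cells, fell by 0.63 (SE 0.15, limma adjusted p = 0.268). The centromere genes *Cenpq* and *Cenpi* fell by 0.62 (SE 0.19, limma adjusted p = 0.311) and 0.59 (SE 0.09, limma adjusted p = 0.214). The groups did not overlap for any of the 5, which were taken because they passed the threshold (10.1% of all features had all LBW pups below all ABW pups). *Cenpi* missed the fold criterion without LBW 1 (-0.52) or ABW 1 (-0.57), *Cep55* without LBW 3 (-0.54), ABW 1 (-0.54) or ABW 3 (-0.58), and *Cenpq* the threshold without LBW 1 (-0.53) or ABW 3 (-0.46), while *Pbk* and *Kif15* met it without any 1 pup. *Cep55* also missed the fold criterion with array weights (-0.53), and *Cenpq* missed the threshold by the methods' t-test. *Zwint*, a kinetochore gene picked out after its values were seen, had higher values in LBW pups, with 11.51, 11.70 and 11.51 in LBW and 11.28, 11.31 and 11.19 in ABW pups.

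**Figure D3:**
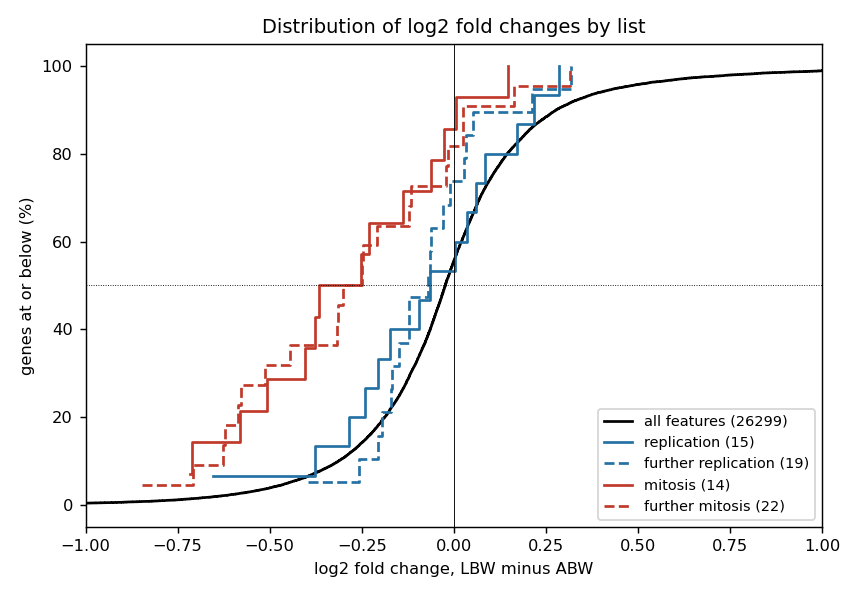
Share of genes at or below each log2 fold change (LBW minus ABW, x axis; percent of genes, y axis) for all 26299 features (black), replication genes (blue) and mitosis genes (red), with the first list as full and the further genes as broken lines. With all pups the medians of the mitosis lists are -0.31 and -0.28, those of the replication lists -0.07 and -0.07, and that of all features -0.02. Without LBW 3 the median of the first mitosis list is -0.20, and the middle genes of the further one are at -0.13.

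Of the factors that control both sets of genes, 3 of 18 listed had a row. *Rbl2*, the pocket protein p130 that holds E2F targets silent in resting cells, was at 9.78, 9.76 and 9.76 in LBW and at 10.09, 10.26 and 10.40 in ABW pups. All LBW pups were below all ABW pups, with a log2 fold change of -0.48 (SE 0.10, unadjusted p = 0.00275, limma adjusted p = 0.250), short of the fold criterion. *Tfdp1*, the partner that E2F factors need to bind DNA, was at 11.67, 11.62 and 11.74 in LBW and at 11.60, 11.39 and 11.36 in ABW pups, a log2 fold change of 0.23 (SE 0.10, limma adjusted p = 0.419). *Foxm1*, an activator of G2 and mitosis genes, was at 9.39, 9.48 and 9.21 in LBW and at 9.58, 9.55 and 9.34 in ABW pups, which overlapped (log2 fold change -0.13, SE 0.11, or -0.05 without LBW 3 and -0.20 without ABW 3).

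Markers of tissues that hold dividing cells were read in the same pups. The 8 erythroid genes with a row (of 14) averaged -0.36, 0.26 and -0.64 in LBW and 0.25, 0.03 and -0.28 in ABW pups. None of the 8 was called (4.27% of all features were). Their summed signal was between 16.19 and 16.42 on the log2 scale in all pups, with the globin genes *Hbb* (in LBW 1 and LBW 2) or *Hba-a2* (in the others) the highest, and the precursor gene *Slc4a1*, the anion exchanger of red cells, was at 9.27, 10.24 and 8.79 in LBW and at 10.82, 10.28 and 9.81 in ABW pups. The measures did not order the pups alike: LBW 2 had the highest mean of the list, the lowest summed signal and a *Slc4a1* level below those of ABW 1 and ABW 2. The 6 neutrophil genes with a row (of 12) averaged 1.49, 0.72 and 1.398 in LBW and -0.05, 0.08 and -0.03 in ABW pups. At the threshold of the study 3 of the 6 rose by limma (2.38% of all features). The summed signal of the 6 was 13.75, 12.87 and 13.56 in LBW and 12.47, 12.40 and 12.32 in ABW pups. *Lcn2* had the highest signal of the list in every pup except LBW 3, where *S100a8* had it, while *Prtn3* and *Cebpe*, genes of early precursors, had log2 fold changes of -0.07 and -0.09 at low signals (percentiles 19.3 and 26.9).

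Bone, fat and cartilage markers differed between the pups too. The summed signal of the 7 bone genes was 15.08, 12.00 and 15.78 in LBW 1, 2 and 3 and 10.92, 11.06 and 11.26 in ABW pups. At the threshold of the study 5 of the 7 rose by limma (2.38% of all features), *Spp1* by 5.02 and *Ibsp* by 4.73. *Phex* had the highest signal of the list in LBW 2 and the ABW pups, *Ibsp* in LBW 1 and *Spp1* in LBW 3, although signals of different probes are not strictly comparable. The 5 adipocyte genes with a row (of 6) averaged -0.73, -0.71 and -1.58 in LBW and -0.73, 0.44 and 0.30 in ABW pups. Their summed signal was 15.18, 15.22 and 14.92 in LBW and 15.23, 15.65 and 15.60 in ABW pups, led by *Fabp4*, and *Lep* and *Pparg* fell. The 4 cartilage genes with a row (of 7) averaged 0.94, -0.15 and 1.60 in LBW and 0.18, -0.32 and 0.14 in ABW pups. Their summed signal was 14.25, 13.54 and 14.57 in LBW and 13.79, 13.46 and 13.78 in ABW pups, led by *Col2a1*, and *Acan* rose, with overlap between the groups. ABW 1 had the adipocyte level of LBW 1 and the highest mean of all pups in the 14 mitosis genes of the first list. In the 22 further mitosis genes ABW 3 was the highest, at 0.06, and ABW 1 was at 0.003. LBW 2 had by far the lowest bone signal of the LBW pups, with the mitosis genes of the first list at -0.25. LBW 3, with the lowest mitosis genes of that list (-0.45), had the highest bone and cartilage means of all pups (4.52 and 1.60). Its adipocyte and erythroid means were the lowest of all pups (-1.58 and -0.64). The part of these tissues in the lower mitosis genes was not tested.

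**Figure D4:**
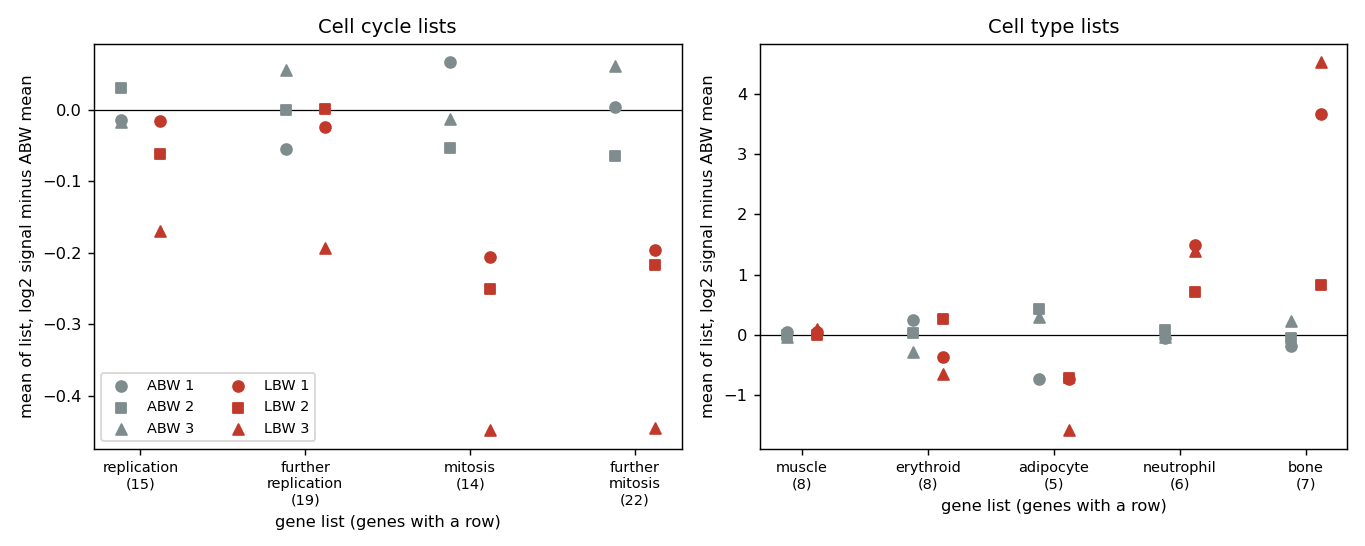
Mean of each gene list in each pup, as log2 signal relative to the ABW mean, for cell cycle lists (left) and cell type lists (right). Points are single pups (grey, ABW; red, LBW), the number of genes with a row is in brackets, and the y axes differ. The LBW pups lie between -0.21 and -0.45 in the mitosis genes of the first list, where bone genes range from 0.82 to 4.52.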

How the data were processed

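The authors hybridized skeletal muscle RNA of 6 pups to NimbleGen Rat Gene Expression arrays and deposited a normalized log2 value for each of 26419 rows and each pup. The paper names in-house R scripts and Bioconductor, and the submitters' processing notes name RMA. Other settings are not given in the sources used here. The deposited values hold no background or detection call. Arrays carry no count depth, and their number limits the precision.

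Rows were named by RefSeq accession through a table of the assembly GRCr8, which gave a symbol to 9747 rows (36.9%). Rows of a symbol were averaged, which left 26299 features. LBW minus ABW was fitted with limma 3.58.1 in R 4.3.3 (lmFit, eBayes, 2-sided), and adjusted by Benjamini-Hochberg over all features. No filter was used. limma was tested on simulated data, and no result of that test is given here. The log2 values of single genes were also tested by exact permutation.

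The members and lists were chosen with earlier results of these data known. The text names, for each role, all genes past the threshold, the 2 with the largest change and the 2 with the highest signal, others as parts of ranges, and, of the further genes, those past the threshold and the transcription factors. *Aurka*, *Cdk1*, *Birc5*, *Cdca8*, *Ccnb2* and *Zwint* were added after their values were seen, and only the leaving out of each pup was run for them singly. Alternatives were leaving out each pup, the replicate number as a block, quantile normalization, centring on the median, a filter that dropped 25% of rows by low mean signal, array weights, an eBayes fit with a trend or made robust, each row by itself, the methods' t-test, and other fold criteria. RefSeq promoter windows of GRCr8 were searched on both strands.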

Additional observations from a re-analysis of the deposited data

How the results depend on the processing

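The number of proliferation genes called lower was 3, it was 4 with median centring, where *Ccnb1* was added, and it lay between 2 and 4 without any 1 pup. It was 0 at a fold change of at least 2 and 9 with no fold change criterion, which was chosen after seeing the data. The number called higher was 0 and became 1 only without that criterion. Over all features, 1124 were called, compared to 584 by the methods' t-test, 335 at a fold change of at least 2 and 3250 without a fold criterion. Raising the criterion can only remove calls and dropping it can only add them. For the t-test the cause was not tested. After adjustment between 0 and 125 features passed without any 1 pup, the 125 without LBW 2, and 0 of the proliferation genes passed each time.

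The median log2 fold change of the mitosis genes was between -0.38 and -0.20 without any 1 pup, the difference of replication minus mitosis between 0.10 and 0.33, and no other alternative moved either by more than the spread between pups. Of 29 single cell cycle genes followed, 25 kept their direction in the 9 alternatives that can move a fold change (each pup left out, quantile normalization, median centring and array weights). *Bub3* was at 0.0098 with array weights, and without any 1 pup *Bub3* lay between -0.12 and 0.11, *Cdc25b* between -0.15 and 0.043, *Pcna* between -0.060 and 0.14 and *Rrm1* between -0.046 and 0.14. The cause was not tested.

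The labels do not say whether the replicate numbers pair the pups. LBW and ABW pups of numbers 1, 2 and 3 correlated by 0.087, 0.104 and 0.055 once group means were taken off. Pairs of unlike number lay between -0.096 and 0.021, so that each of the 6 pups correlated best with its own number. All these correlations were low, and whether a number marks a shared litter or batch was not tested. With the replicate block, 1230 features were called, 1069 of them shared, and the proliferation genes gave 3 lower, 0 higher and 0 after adjustment. The block cannot move a fold change in this balanced design. It took the unadjusted p of *Lig1* above 0.05 and that of *Rrm2* below it. How far a low signal such as that of *Fen1* or *Orc1* lies above background is unknown.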

Other observations

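Genes of muscle precursors were read because these cells divide in newborn muscle. The list had 3 genes with a row of 6. *Cdh15*, M-cadherin of satellite cells and myoblasts, was at 10.90, 10.95 and 10.89 in LBW 1, 2 and 3 and at 10.82, 10.62 and 10.43 in ABW 1, 2 and 3. All LBW pups were above all ABW pups, by a log2 fold change of 0.29 (SE 0.12, limma adjusted p = 0.389), which did not meet the fold criterion. *Myod1*, a factor that commits cells to muscle, was at 10.59, 10.53 and 10.44 in LBW and at 10.75, 10.75 and 10.41 in ABW pups, and *Notch3* at 10.95, 10.84 and 10.53 and at 10.38, 10.66 and 10.28, both with overlap. The list averaged 0.25, 0.21 and 0.05 in LBW and 0.08, 0.11 and -0.19 in ABW pups, with overlap between the groups. *Myog*, which marks myoblasts that differentiate, was at 13.79, 13.76 and 13.52 in LBW and at 13.53, 13.50 and 13.27 in ABW pups.

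The few genes with a row for other cells that divide in newborn muscle gave no call by limma (4.27% of all features were called). A list this short can give no call at that share. The 4 fibroblast genes with a row (of 5) averaged -0.04, -0.05 and -0.20 in LBW and -0.06, -0.004 and 0.06 in ABW pups, with *Dcn*, decorin, or *Col3a1*, a fibrillar collagen, the highest in each pup. The 2 endothelial genes with a row (of 6), *Pecam1* and *Kdr*, had log2 fold changes of 0.06 and -0.12. The 5 macrophage genes (of 7) had a median log2 fold change of -0.08 and were led by *C1qb*, and *Cd79b*, the only lymphoid gene with a row of 5, had one of 0.09. None of these genes had an unadjusted p under 0.05 by limma (6.73% of all features were lower and 5.63% higher at that p).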
